A study of Mus musculus with 10 samples.

Results

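MHC class I antigen presentation was followed through 9 genes, H2-K1, H2-D1, B2m, Tap1, Tap2, Tapbp, Psmb8, Psmb9 and Nlrc5. They were chosen by name among the 18901 genes of the deposited table, and all 9 are listed there. The RNA-seq series holds 10 mouse libraries from 5 lines of a cross of MF1 and 129. The starting cells were Oct4-GFP mouse embryonic fibroblasts (MEF, passages 2 and 4), which carry a green fluorescent reporter of the Oct4 gene and were grown in DMEM with serum. The other 4 lines were made from such MEF with retroviruses for Oct4, Sox2, Klf4 and c-Myc and were grown in KSR+LIF medium. They are a control iPS line, Netrin-1 derived iPS clones 1 and 2, and a pre-iPS line of partially reprogrammed cells that keep the transgenes on, each sequenced at passages 5 and 25. Every line is thus a pair of passages of the same cells. In comparisons of lines the p-values measure the spread between passages, not between independently derived clones. In the comparison of passages they measure how the change differed between the 4 lines. SDs within a line are between its passages, and SDs over the iPS libraries mix lines and passages.

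Class I molecules display peptides from inside the cell to CD8 T cells, and natural killer cells respond to their loss. The proteasome cuts proteins into peptides, and interferon-inducible subunits, Psmb8 and Psmb9 among them, replace the constitutive ones in the immunoproteasome. The transporter made of Tap1 and Tap2 carries the peptides into the endoplasmic reticulum, where tapasin (Tapbp) and chaperones help load them onto a heavy chain (H2-K1 or H2-D1) paired with beta-2-microglobulin (B2m). Nlrc5 is a transcriptional activator of these genes. Pluripotent mouse cells are known for low class I protein at their surface, which RNA does not report.

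Values are edgeR pseudo-counts, which the authors scaled to a common library size. 1 read was worth between 0.888 and 1.184 pseudo-counts, and the libraries held 38110410 to 52946856 reads on genes. The labels were checked against marker genes fixed for this purpose. All 10 fibroblast markers were higher in MEF, all 8 pluripotency markers were lower in MEF than in the iPS lines, and the pre-iPS line had 5 of these 8 lower and 1 higher than the iPS lines. MEF also held leukocyte and macrophage RNA. Of 15 such markers 14 were higher in MEF, with a summed pseudo-count of 17871 to 18116 against 945 to 2695 in the iPS libraries, where 8 of the 15, Ptprc and the 3 C1q genes among them, stayed below 5 in every library. The summed fibroblast markers reached 3939589 to 4119843 in MEF and 84745 to 130751 in the iPS libraries, which may have been grown on MEF feeders. The part of these other cells in the values below was not tested, and in bulk RNA fewer cells of a type and less RNA per cell cannot be told apart.

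Of the 9 genes, 7 lie on chromosome 17 (mm10, GENCODE M21): Tapbp at chr17:33915899-33929292 and H2-K1 at chr17:33996017-34000347 on the minus strand, then Psmb9 at chr17:34181987-34187764 on the minus strand, Tap1 at chr17:34187553-34197225, Psmb8 at chr17:34197721-34201454, Tap2 at chr17:34203527-34216321 and H2-D1 at chr17:35262730-35267499. B2m is at chr2:122147686-122153083 and Nlrc5 at chr8:94434356-94527272. Reads were counted over exons. The exons of Psmb9 and Tap1 share 212 bases on opposite strands, and the library kit keeps no strand, so reads there cannot be told apart. Exons of other annotated genes also overlap 682 bases of Tapbp, 543 of Tap2, 186 of Psmb8 and 43 of Nlrc5. Of the 50-base stretches in the H2-K1 and H2-D1 transcripts, 6.87% and 13.9% also occur in transcripts of other genes, other class I heavy chains among them. The share was 3.5% for Tapbp and below 1% for Tap1 and Tap2. No such stretch was shared for B2m, Psmb8, Psmb9 or Nlrc5. These heavy chains differ between mouse strains and the reads were counted against the C57BL/6 reference genome. The effect on their counts was not tested.

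The promoters of the heavy chains and of B2m are known to carry sites for NF-kappaB, interferon regulatory factors and the Nlrc5-recruiting complex, and they are shown because these genes went different ways in MEF. The RefSeq windows (GRCm38.p6, the same build) cover 250 bases (249 for B2m) before the start of 7 members, and those of H2-D1, Tap1, Tapbp, Psmb8 and Psmb9 lie at least in part in an annotated exon. Motifs were searched on both strands. Capitals mark an NF-kappaB consensus, an interferon response core (GAAANNGAAA, or the shorter GAANNGAAA in either orientation), TGACG and CCAAT. The H2-K1 window is chr17:34000348-34000597 on the minus strand and the B2m window is chr2:122147437-122147685 on the plus strand.
H2-K1: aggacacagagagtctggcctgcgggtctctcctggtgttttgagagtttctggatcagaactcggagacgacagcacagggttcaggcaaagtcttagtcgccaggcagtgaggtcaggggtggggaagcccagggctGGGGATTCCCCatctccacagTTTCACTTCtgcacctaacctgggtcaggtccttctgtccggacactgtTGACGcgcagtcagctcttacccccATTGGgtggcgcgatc
B2m: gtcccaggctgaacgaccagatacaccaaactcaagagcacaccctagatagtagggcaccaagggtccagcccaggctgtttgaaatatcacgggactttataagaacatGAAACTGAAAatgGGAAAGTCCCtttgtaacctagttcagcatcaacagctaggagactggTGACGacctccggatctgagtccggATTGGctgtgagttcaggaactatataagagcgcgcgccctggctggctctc

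The core of these windows can be set side by side with that of H2-D1 (chr17:35262923-35262952, plus strand), whose capitals read the same as those of H2-K1.
H2-K1 core: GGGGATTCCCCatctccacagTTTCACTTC
H2-D1 core: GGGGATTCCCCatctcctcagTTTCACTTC
B2m core: GAAACTGAAAatgGGAAAGTCCC
In both heavy chains the NF-kappaB consensus comes first and the interferon core is the shorter one on the opposite strand, whereas in B2m the longer interferon core comes first on the coding strand. Of all 27025 windows, 3.04% hold the longer interferon core, 6.34% the shorter core and 3.75% the NF-kappaB consensus. TGACG, part of the site bound by the Nlrc5-recruiting complex, is in 17.9% of all windows and in 5 of the 7 member windows. The general promoter motif CCAAT is in 34.5% of all windows and in 6 of the 7. A GC box, GGGCGG, occurred in 3 member windows (Tap1, Tapbp and Psmb9) against 32.9% of all. The windows of Tap1 (chr17:34187306-34187555) and Psmb9 (chr17:34187331-34187580) cover nearly the same stretch on opposite strands. All motif matches in them fall on the same bases. The counts of 5, 6 and 3 member windows therefore each enter a shared site for both genes. A match is a run of letters and was not tested as a binding site.

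Per kilobase of exon the members spanned a wide range within each line. In the 6 iPS libraries B2m stood highest at 6451 ± 815 pseudo-counts per kb (SD, n = 6), followed by H2-K1 at 5081 ± 685. Tapbp came next at 1509 ± 255 per kb and H2-D1 at 774 ± 122. Tap1 had 527 ± 106, Tap2 382 ± 74.9, and Psmb8 356 ± 238 per kb, and Psmb9 ranged from 148 to 283. Nlrc5 was lowest at 12.5 ± 4.84 per kb. In MEF the order began with B2m at 30882 ± 1114 per kb (SD, n = 2), then Tapbp at 2831 and H2-K1 at 2436, and again ended with Nlrc5 at 40.3.

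**Figure D1:**
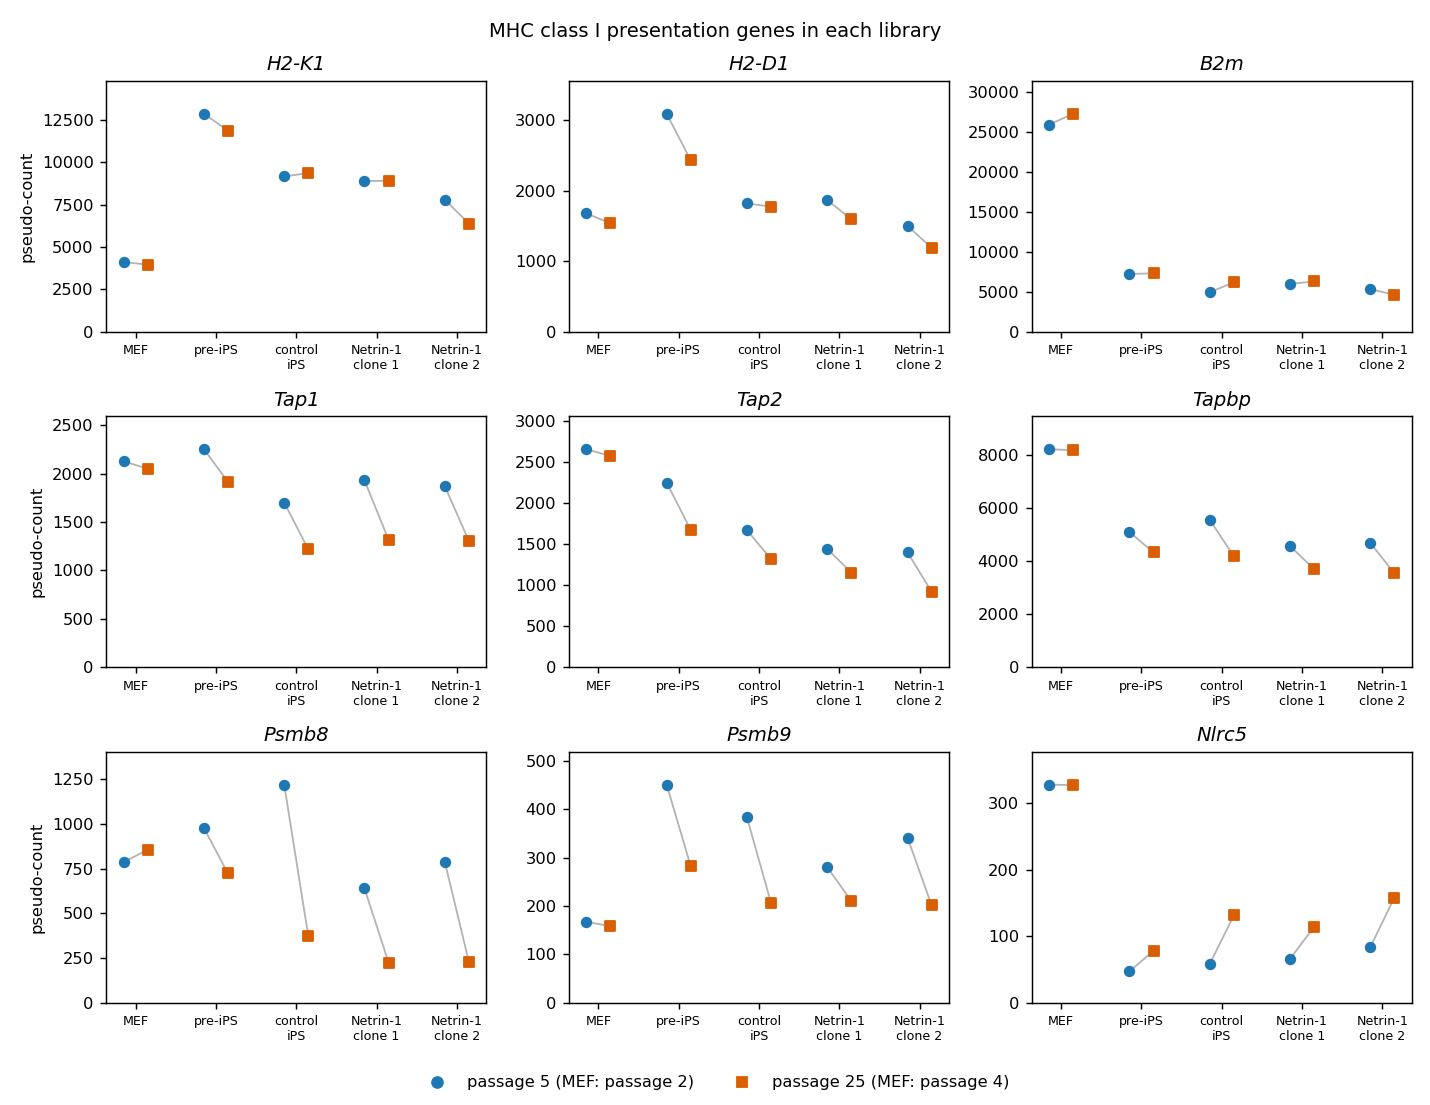
Pseudo-counts (linear axes from 0) of the 9 genes in the 10 libraries, circles for passage 5 (MEF passage 2) and squares for passage 25 (MEF passage 4), joined within a line. B2m and Nlrc5 were highest in both MEF libraries, H2-K1 was lowest there, and the squares of Psmb8 lie far below the circles in the 3 iPS lines.

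The first comparison asked how the starting fibroblasts differed from the fully reprogrammed lines. In MEF B2m, Tap2 and Nlrc5 were higher and H2-K1 was lower than in the iPS lines, at an adjusted p under 0.05 and a fold change of at least 2 in limma. The 3 higher members compare with 21.6% of all 17075 genes tested that were called higher, and the 1 lower member with 26.6% called lower. The other 5 did not meet the rule. The same shares stand beside the list counts in this comparison. Shares by adjusted p alone are not given for it, so counts at that threshold lack a background. The median log2 difference of the 9 was 0.78 against -0.09 over all genes.

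H2-K1, a classical heavy chain, had 4109 and 3954 pseudo-counts in the MEF libraries. The iPS libraries ran from 6379 to 9353 with a median of 8891, so that the groups did not overlap. The log2 fold change was -1.05 (SE 0.08), a 2.07-fold lower level, with an adjusted p of 3e-06 in limma. Scaling to 4 housekeeping genes gave -0.66, short of a factor of 2 (adjusted p = 6.67e-05), and shifted the median of all genes from -0.09 to 0.30. The median over the 838 chromosome 17 genes was -0.33. H2-D1, the other classical heavy chain, behaved differently. Its 1681 and 1539 pseudo-counts in MEF fell inside the iPS range of 1191 to 1870, with a log2 difference of 0.00 (SE 0.12, adjusted p = 0.999 in limma). H2-K1 accordingly exceeded H2-D1 per kb by a ratio of 3.11 to 3.26 in MEF and 6.03 to 7.07 in the iPS libraries.

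The other heavy chains of the MHC leaned the way of H2-K1. The list of classical and non-classical heavy chains held 16 genes with enough reads, H2-K1 and H2-D1 included. Of these 11 were lower in MEF and none was higher in limma, beside 26.6% and 21.6% of all genes. The median log2 difference was -1.99. By adjusted p alone 13 were lower and 1, H2-T10, was higher (log2 difference 0.44, SE 0.13, adjusted p = 0.0112 in limma). No share of all genes is given at that threshold, so these counts cannot be judged against it. H2-Q10, a non-classical chain, had 79.6 to 160 pseudo-counts in the reprogrammed libraries and 1.06 to 1.19 in MEF. H2-Q4 was lower by -1.22 on the log2 scale (SE 0.11, adjusted p = 1.04e-05), which housekeeping scaling reduced to -0.83. H2-T23, whose product Qa-1 is read by natural killer cells, had a difference of -0.87 (SE 0.15), under the fold required. Many of these chains have close paralogs, and their counts are uncertain for that reason.

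B2m, the light chain shared by all class I molecules, showed the opposite. It had 25881 and 27237 pseudo-counts in MEF. The iPS libraries held between 4606 and 6286 with a median of 5648. Both MEF libraries were therefore above every iPS library, by 4.82-fold on average (log2 fold change 2.27, SE 0.09, adjusted p = 9.74e-08 in limma). Set against the heavy chains, B2m RNA per kb was 9.66 ± 0.692 times (SD, n = 2) the sum of H2-K1 and H2-D1 in MEF, and between 0.895 and 1.21 times that sum in the 8 reprogrammed libraries. Macrophages express B2m and class I genes strongly. Their markers were higher in MEF as given above, where H2-K1 was lower and H2-D1 was not called. The part of these cells in the B2m difference was not tested. Products of 6 class I-like genes outside the MHC include partners of B2m such as Fcgrt and Hfe. Of these 6 genes 4 were higher in MEF and none was lower in limma. The 4 were Fcgrt, Hfe, Mr1 and Procr, with log2 differences of 3.40, 2.39, 1.22 and 1.13. At an adjusted p alone 5 were higher, with no share of all genes given beside that count.

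The genes of peptide transport and loading were at or above the iPS level in MEF. Tap2 had 2654 and 2569 pseudo-counts in MEF and 918 to 1668 in the iPS libraries, with a log2 fold change of 1.01 (SE 0.18, adjusted p = 0.000857 in limma). That value sits at the edge of the rule, and it fell to 0.81 under quantile normalization and to 0.91 to 0.99 when any of 4 libraries was left out (control iPS, clone 1 or clone 2 at passage 25, or MEF at passage 2). Tapbp, the tapasin gene, had 8228 and 8183 pseudo-counts in MEF against 3541 to 5559, a difference of 0.92 (SE 0.15, adjusted p = 0.00035) that missed the fold required and passed it with housekeeping scaling (1.31). Tap1 had 2127 and 2049 pseudo-counts in MEF against 1218 to 1929 in the iPS libraries, a difference of 0.45 (SE 0.19, adjusted p = 0.0593). All 3 transport and loading members thus had both MEF libraries above every iPS library, Tap1 without passing the adjusted p. The share of all genes separated in this way is not given here. Of 13 further loading and trimming genes, 6 were higher and 1 lower in MEF. The endoplasmic reticulum chaperones Calr and Pdia3 were higher by 1.32 (SE 0.12) and 1.54 (SE 0.11), and Tapbpl, a tapasin relative, by 1.93 (SE 0.19). Quantile normalization gave 0.83 for Calr. The peptidase Thop1 was lower by -1.79 (SE 0.14). Canx (0.73, SE 0.07) and the trimming enzyme Erap1 (0.56, SE 0.17) stayed below the fold required.

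No immunoproteasome gene met the rule between MEF and the iPS lines. Psmb8 had 786 and 856 pseudo-counts in MEF, within an iPS range of 224 to 1221, and its log2 difference was 0.78 (SE 0.59, adjusted p = 0.247 in limma). Psmb9 had 167 and 158 in MEF, below the iPS range of 201 to 383, so that the groups did not overlap, with a difference of -0.68 (SE 0.30, adjusted p = 0.0647). The third inducible subunit, Psmb10, differed by -0.45 (SE 0.19, adjusted p = 0.0555). None of the 14 constitutive core genes met the rule in limma or edgeR, though 11 had an unadjusted p under 0.05. At an adjusted p alone 9 were lower, among them Psmb6 (-0.56, SE 0.10) and Psmb7 (-0.60, SE 0.07). The share of all genes at that threshold is not given.

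Nlrc5, the class I transactivator, had 328 and 327 pseudo-counts in MEF. In the iPS libraries it ran from 58 to 158 with a median of 98.6, corresponding to 60 to 176 reads. The groups did not overlap, and the log2 fold change was 1.77 (SE 0.39, adjusted p = 0.00267 in limma). By line average MEF had the highest Nlrc5, B2m, Tap1, Tap2 and Tapbp, with Tap1 overlapping pre-iPS cells, and the lowest H2-K1 and Psmb9. A link between Nlrc5 and these genes was not tested. Ciita, the class II transactivator, was lower in MEF by -1.76 (SE 0.40), which quantile normalization reduced to -0.71 (adjusted p = 0.118). Of 20 transcription regulators of class I genes 2 were higher (Rel and Irf8) and 1 lower (Ciita). Of 10 genes for interferon receptors and signal transduction 7 were higher in MEF, namely the receptor chains Ifnar1, Ifnar2, Ifngr1 and Ifngr2, the kinases Jak1 and Jak2, and the inhibitor Socs1. None was called lower in limma, and by adjusted p alone the phosphatase Ptpn2 was (-0.21, SE 0.08, adjusted p = 0.0384). The interferon gamma receptor chains Ifngr1 and Ifngr2 differed by 1.03 (SE 0.21) and 1.92 (SE 0.12), and the kinase Jak2 by 1.62 (SE 0.14). Ifngr1 fell short of the fold required with quantile normalization (0.85) and without any passage 25 iPS library (0.91 to 0.98). Interferon-induced genes were mixed, with 3 of 23 higher (Iigp1, Ifit3 and Ifit2) and 8 lower, Oas2 and Rsad2 most of all (-5.18 and -3.93).

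**Figure D2:**
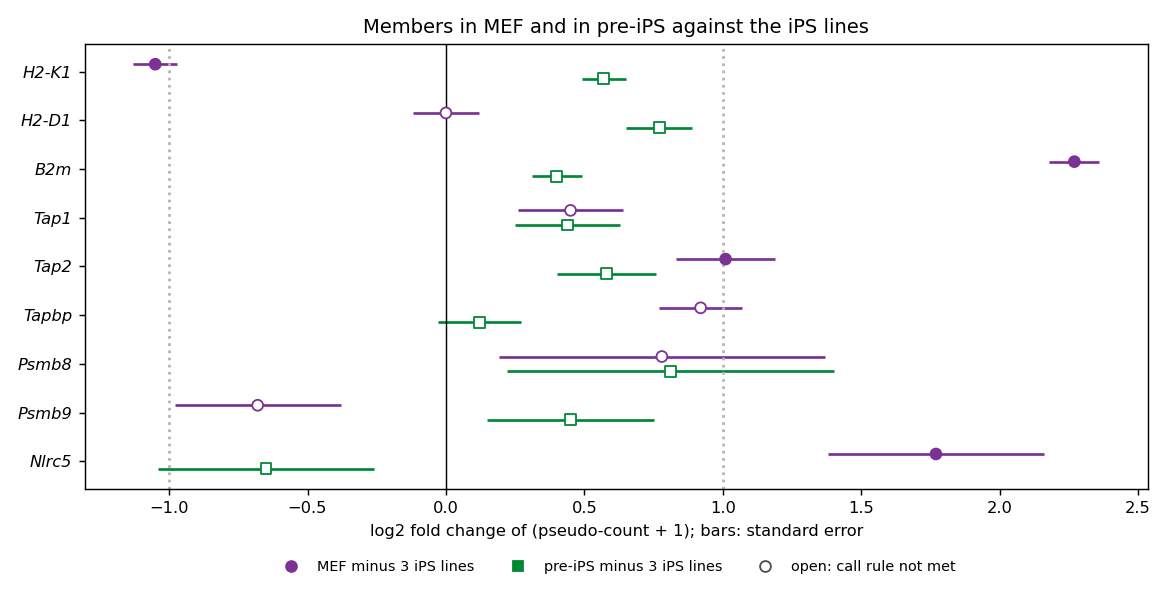
Log2 fold changes of (pseudo-count + 1) with standard errors for MEF (circles) and pre-iPS (squares) against the mean of the 3 iPS lines, filled where the call rule was met, with dotted lines at 1 and -1. B2m lies far to the right at 2.27 and H2-K1 to the left at -1.05 in MEF, and no pre-iPS square is filled.

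**Figure D3:**
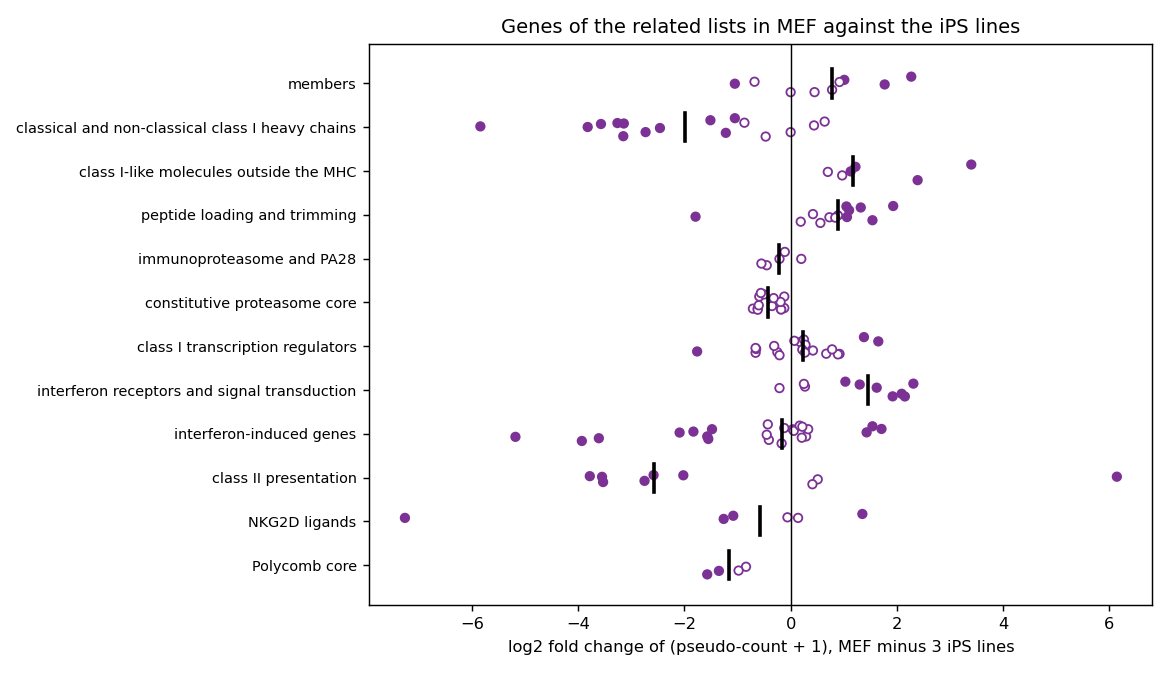
Log2 fold changes in MEF against the iPS lines for each gene tested of the 9 members and of 11 related lists, filled where called, with a black bar at the median. Heavy chains centre at -1.99, interferon receptors and signalling genes at 1.46 and the constitutive proteasome core at -0.42.

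The second comparison set the partially reprogrammed pre-iPS line against the iPS lines. No member met the rule in limma, where 16.3% of all genes did, nor in edgeR on reads recovered from the table. At an unadjusted p under 0.05 there were 4 members, the same number as at an adjusted p under 0.05 alone, and they are H2-K1, H2-D1, B2m and Tap2, all higher in pre-iPS cells. At that threshold 18.7% of all genes were higher and 20.8% lower. Passages 5 and 25 paired the libraries, and with the passage as a block 7 members were higher and 1, Nlrc5, was lower by adjusted p alone, beside 23.4% of all genes higher and 24.4% lower in that fit.

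H2-K1 had 12851 and 11859 pseudo-counts in the pre-iPS libraries, above the highest iPS library at 9353. The difference was 0.57 on the log2 scale (SE 0.08, adjusted p = 0.000828 in limma), a 1.48-fold higher level. H2-D1 had 3096 and 2434 there, above the highest iPS library at 1870, with a difference of 0.77 (SE 0.12, adjusted p = 0.00165). B2m, at 7223 and 7294, exceeded the iPS maximum of 6286 by less, with a difference of 0.40 (SE 0.09, adjusted p = 0.00999). RNA of H2-K1, H2-D1 and B2m thus stood above the iPS lines, and B2m per kb was 0.909 and 1.02 times the sum of H2-K1 and H2-D1. The wider list did not share this rise. Of its 16 heavy chains none was called higher and 3 were called lower in limma, beside 4.71% and 11.6% of all genes. Their median log2 difference was -0.18, with 7 positive and 9 negative. Tap2 had 2247 and 1670 pseudo-counts, both just above the iPS maximum of 1668, with a difference of 0.58 (SE 0.18, adjusted p = 0.0352). When the pre-iPS library of passage 5 was left out, 2 members in place of 4 passed the adjusted p.

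The remaining members were less clear. Tap1 had 2252 and 1913 pseudo-counts in pre-iPS cells, and its difference of 0.44 (SE 0.19) had an adjusted p of 0.104, or 0.00398 with the passage as a block. Tapbp differed by 0.12 (SE 0.15). Psmb8 (0.81, SE 0.59) and Psmb9 (0.45, SE 0.30) had adjusted p-values of 0.302 and 0.272, which the block lowered to 0.03 and 0.0304. Nlrc5 averaged lowest in pre-iPS cells, with 46.9 and 77.8 pseudo-counts that overlap the range of clone 1, and its difference of -0.65 (SE 0.39) had an adjusted p of 0.219, or 0.0239 with the block. By line average pre-iPS cells had the lowest Nlrc5 and the highest H2-K1, H2-D1, Psmb8 and Psmb9, the last 2 with libraries that overlap those of other lines. A link between Nlrc5 and these genes was not tested. Among the related genes Ciita had 6.12 and 2.88 pseudo-counts in pre-iPS cells against 18.8 to 132 in the iPS libraries (-3.56, SE 0.40, adjusted p = 0.000265). The heavy chain H2-M3 (0.73, SE 0.09) and the regulator Irf2 (0.79, SE 0.11) were higher at an adjusted p alone. None of the 13 loading genes met the rule in limma or edgeR, with 3 at an unadjusted p under 0.05 and 2 higher at an adjusted p alone. The 14 core proteasome genes likewise gave 0 calls in both tools and 1 gene at an unadjusted p under 0.05. The leukocyte marker sum was 5876 to 6755 in pre-iPS cells, with 2 of 15 markers called higher. Of the 15, 11 had a negative log2 difference and 4 a positive one, with a median of -0.31. The C1q genes were among 7 markers below 5 in both libraries. The part of leukocyte RNA in these results was not tested.

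Set directly against pre-iPS cells, MEF had 2 members higher (B2m and Nlrc5) and 2 lower (H2-K1 and Psmb9), where 20.9% of all genes were higher and 22.4% lower. The log2 fold changes were 1.87 (SE 0.11) for B2m and 2.42 (SE 0.48) for Nlrc5. H2-K1 was 3.06-fold lower in MEF (-1.61, SE 0.10, adjusted p = 1.3e-06 in limma). Psmb9 was lower by -1.13 (SE 0.37, adjusted p = 0.0227), a call lost with either scaling alternative (adjusted p = 0.0568 and 0.11) and without either MEF library (0.0737 and 0.0891) or the pre-iPS library of passage 5 (0.147). H2-D1 differed by -0.77 (SE 0.15) and Tapbp by 0.80 (SE 0.18), both short of the fold required. Comparisons with MEF here and above share the MEF libraries.

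The third comparison asked whether iPS clones derived with Netrin-1, a secreted guidance protein, differed from the control iPS line. No member was called by limma or by edgeR in the clones together, where 2.11% of all genes were called. Nor was any member called in clone 1 against control (1.41% of genes), in clone 2 against control (2.42%) or in clone 2 against clone 1 (0.966%). At an unadjusted p under 0.05 there were 1, 0, 2 and 3 members in these 4 comparisons. The differences of the 9 members between the clones together and the control ran from -0.75 (Psmb8, SE 0.62) to 0.19 (Nlrc5, SE 0.41).

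The lowest adjusted p belonged to H2-K1 in clone 2. Its 7787 and 6379 pseudo-counts lay below the control libraries at 9154 and 9353 and below clone 1 at 8883 and 8899. The log2 difference from the control was -0.39 (SE 0.10, adjusted p = 0.0632 in limma), and with the passage as a block the adjusted p was 0.0389. H2-D1 in clone 2, at 1502 and 1191, was also below both control libraries at 1822 and 1777, with a difference of -0.43 (SE 0.15, adjusted p = 0.172, or 0.0405 with the block). By adjusted p alone these 2 members were lower with the block, beside 3.96% of all genes, and the block gave none in the other 3 comparisons of the iPS lines. Neither reached the fold required. Clone 2 had the highest Nlrc5 of the iPS lines, 83.3 and 158 pseudo-counts against 58 and 131 in the control, with a difference of 0.39 (SE 0.48). The 862 genes of chromosome 8, where Nlrc5 lies, had a median of 0.18 in clone 2 against the other iPS lines, beside 0.00 over all genes.

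The last comparison followed the 4 reprogrammed lines from passage 5 to passage 25, with the line as a block. Psmb8 fell and was the only member to meet the rule in limma, where 1.29% of all genes were called lower and 0.398% higher. By adjusted p alone 5 members were lower (Psmb8, Psmb9, Tap1, Tap2 and Tapbp) and Nlrc5 was higher, beside 7.63% of all genes lower and 3.31% higher. These 6 moved in the same direction in all 4 lines. The test that picked them used the same 4 changes, so this is no separate support. The share of all genes that did so is not given here. Without either library of clone 1 no member passed, which leaves 3 complete pairs, and without either pre-iPS library 3 were lower and none was higher. Nlrc5 also missed the threshold without the passage 25 library of clone 2. Without the line as a block none passed.

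Psmb8, the inducible chymotrypsin-like subunit, had 1221 pseudo-counts at passage 5 and 374 at passage 25 in the control iPS line. In clone 1 it went from 640 to 224 and in clone 2 from 788 to 229. In pre-iPS cells it went from 978 to 723. The passage 25 level was thus 30.7%, 35% and 29.1% of that at passage 5 in the 3 iPS lines and 73.9% in the pre-iPS line, a contrast between lines that was not tested. The mean log2 change was -1.36 (SE 0.21, adjusted p = 0.0121 in limma), and the adjusted p was 0.0821 and 0.081 without the clone 1 libraries of passage 5 and 25. In MEF, passages 2 and 4 had 786 and 856 pseudo-counts.

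Psmb9 went from 451 to 282 in pre-iPS cells, from 383 to 206 in the control, from 280 to 210 in clone 1 and from 341 to 201 in clone 2. Every passage 25 value except that of pre-iPS cells was below every passage 5 value, and the mean change was -0.68 (SE 0.12, adjusted p = 0.0162). Psmb10 followed with -0.43 (SE 0.07, adjusted p = 0.0121), and the proteasome activator genes Psme1 and Psme2 with -0.39 (SE 0.07) and -0.57 (SE 0.06), each below the fold required. The constitutive subunits that the inducible ones replace had changes of -0.15 (SE 0.07) for Psmb5, -0.20 (SE 0.06) for Psmb6 and -0.10 (SE 0.05) for Psmb7, none past an adjusted p of 0.05. Over the whole constitutive core all 14 genes had a negative change, with a median of -0.16. Of these 11 had an unadjusted p under 0.05 and 5 were lower by adjusted p alone. The difference between inducible and constitutive subunits was not tested. Per kb, Psmb8 stood at 0.109, 0.0546 and 0.0674 of Psmb5 at passage 5 in the control, clone 1 and clone 2, and at 0.0317, 0.0211 and 0.0226 at passage 25. In pre-iPS cells the ratio was 0.0804 and 0.0748. The ratio of Psmb9 to Psmb6 was 0.0202 to 0.0356 at passage 5 and 0.0154 to 0.0281 at passage 25 over the 4 lines.

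**Figure D4:**
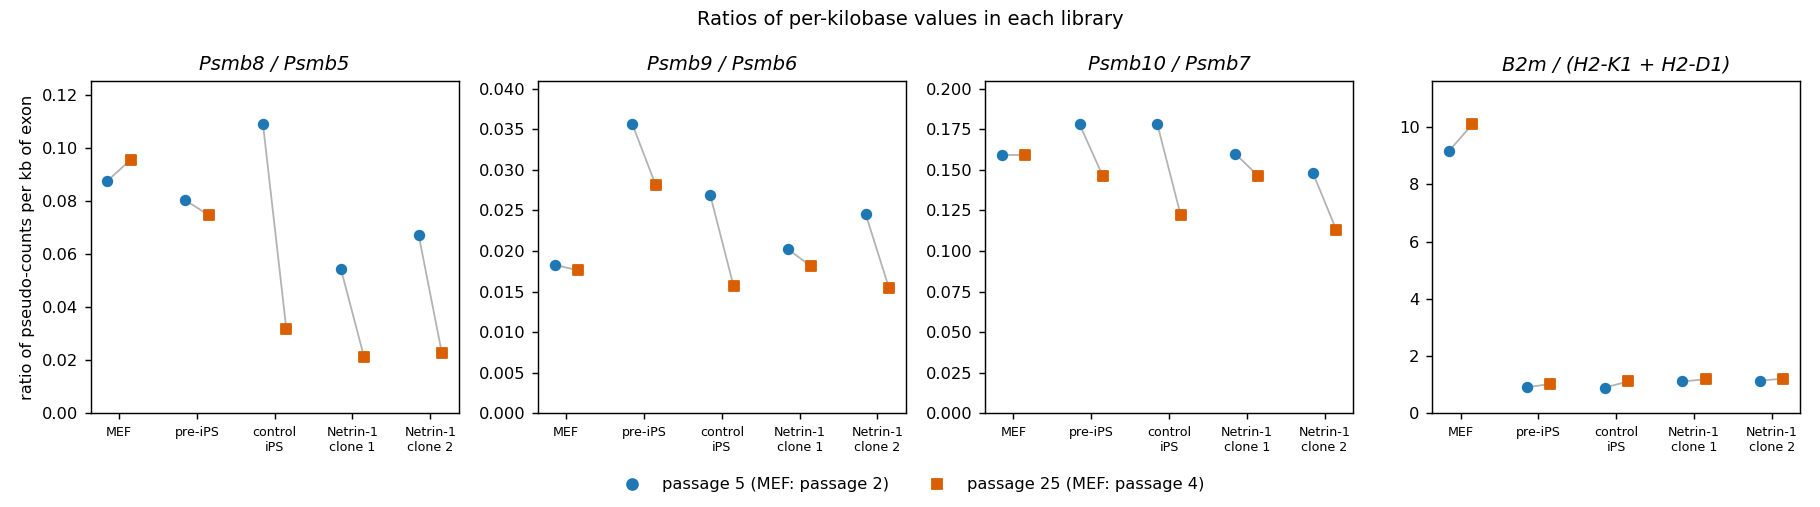
Ratios of pseudo-counts per kb of exon in each library, with circles for passage 5 (MEF passage 2) and squares for passage 25 (MEF passage 4). Psmb8 relative to Psmb5 drops from 0.109 to 0.0317 in the control iPS line, and B2m relative to the heavy chains averages 9.66 in MEF and 1.11 in the iPS libraries.

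The peptide transporter and tapasin went down by smaller amounts. Tap1 fell from 1700 to 1218 in the control, from 1929 to 1317 in clone 1, from 1871 to 1303 in clone 2 and from 2252 to 1913 in pre-iPS cells, with a mean change of -0.45 (SE 0.07, adjusted p = 0.0121). Tap2 changed by -0.43 (SE 0.07, adjusted p = 0.0131) and Tapbp by -0.34 (SE 0.05, adjusted p = 0.011). Of the heavy and light chains none passed. H2-K1 changed by -0.09 (SE 0.06) and was lower in 2 of 4 lines, B2m changed by 0.05 (SE 0.08), and H2-D1, lower in 4 of 4 lines, by -0.24 (SE 0.07, adjusted p = 0.0716). None of the 16 heavy chains was called in limma or edgeR or passed an adjusted p alone, and 3 had an unadjusted p under 0.05.

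Nlrc5 went the other way, from 58 to 131 pseudo-counts in the control, from 65.7 to 114 in clone 1, from 83.3 to 158 in clone 2 and from 46.9 to 77.8 in pre-iPS cells. Within every line the later passage was higher, with a mean change of 0.90 (SE 0.16, adjusted p = 0.0185 in limma). By adjusted p alone 3 of 10 interferon receptor and signalling genes were lower, as were 3 of 20 regulators of class I genes, with none higher. Among them were the transcription factor Irf1 (-0.68, SE 0.07, adjusted p = 0.00379 in limma), the receptor chain Ifngr1 (-0.47, SE 0.08) and the kinase Jak2 (-0.30, SE 0.07). With single libraries left out, the adjusted p in limma rose to at most 0.0324 for Irf1, 0.115 for Ifngr1 and 0.179 for Jak2. The list medians were -0.19 and -0.04. A link to the members was not tested. Of 23 interferon-induced genes 1, the GTPase Gbp2, was called lower (-1.29, SE 0.17), and by adjusted p alone 11 were lower and 3 higher, with a list median of -0.37 beside -0.01 over all genes. The other 81 genes tested within the chromosome 17 span from Tapbp to H2-D1 had a median of -0.03. Of the 15 leukocyte markers 2 were lower at passage 25. Of the 10 fibroblast markers none met the rule in limma or edgeR, and 4 had an unadjusted p under 0.05. Their part in the passage differences was not tested.

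**Figure D5:**
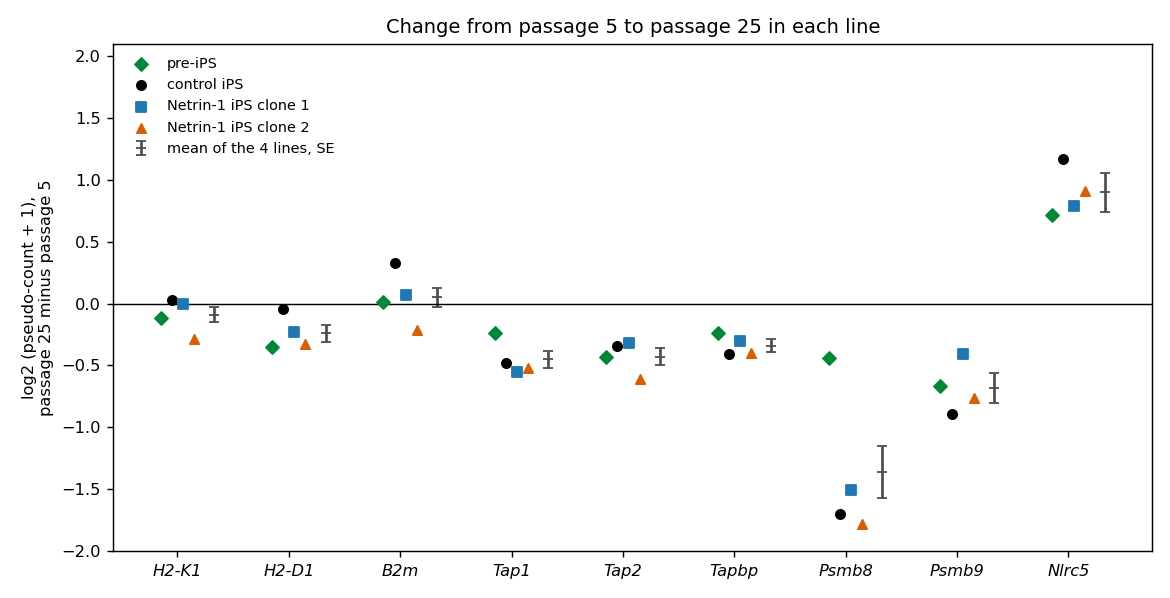
Change in log2 (pseudo-count + 1) from passage 5 to passage 25 for the 9 genes, with a symbol for each of the 4 lines and the mean with its standard error beside them. All symbols lie below 0 for Tap1, Tap2, Tapbp, Psmb8 and Psmb9 and above 0 for Nlrc5, and the pre-iPS symbol of Psmb8 stands apart at -0.44.

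Across the 8 reprogrammed libraries, some members had similar profiles. On the log2 scale H2-K1 and H2-D1 had a Pearson r of 0.98, Psmb8 and Tapbp 0.96, and Psmb8 and Psmb9 0.92, as a description over 8 libraries that share 4 lines. Tap2 had an r of 0.92 with H2-D1 and of 0.87 with Psmb9, so these pairs do not form separate sets. B2m and Tapbp had an r of 0.10. Nlrc5 ran against the other 8 members, with r from -0.93 (Psmb9) to -0.38 (B2m). Over all 10 libraries H2-K1 and B2m had an r of -0.75, which rests on the MEF libraries. The genes outside the lists with the profile most like the mean of the members were Chmp7, Arhgef5 and Ubl4 (r = 0.972 each), Ssh3 (0.970) and Tprgl (0.967) over 10 libraries. Over the 8 reprogrammed libraries they were Hgsnat (0.982), Anxa4 (0.979), Sybu (0.978), Abr and Max (0.976 each). They were picked for the highest r among all tested genes outside the lists, so high values follow from the choice, and none was tested. Members also opposed each other over the 10 libraries, such as H2-K1 and Nlrc5 (r = -0.91), so their mean does not stand for each of them.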

How the data were processed

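RNA was sequenced as 50-nt single reads from an unstranded poly(A) library kit, with all 10 libraries on the same lane. Per the labels, the authors aligned reads to mm10 with TopHat2 (2.0.8b), counted them with HTSeq (0.5.3p9) after CASAVA 1.8.2 and FastQC, and normalised them in edgeR. Alternatives were other pseudocounts and filters, quantile and housekeeping (Actb, Gapdh, Hprt, Tbp) scaling, blocks, and leaving out each library. The deposited signal is a table of edgeR pseudo-counts. Whole reads were recovered from it, with 100% of values whole within 0.1 read. Read depth was 38110410 to 52946856 per library. log2(value + 1) was tested with limma 3.58.1 (R 4.3.3, trend) for the 17075 genes that reached 10 in 2 or more libraries, with Benjamini-Hochberg adjustment. All 10 libraries shared the spread, and passages were compared over 8 libraries with the line as a block. A gene was called where the adjusted p was under 0.05 and the log2 difference was 1 or more in either direction. The reads were also tested with edgeR 4.0.16 (quasi-likelihood), an alternative chosen after seeing the data, which called 8194 genes for MEF against iPS lines, 2712 for pre-iPS against iPS lines and 320 for the passages. Fold changes are on the log2(value + 1) scale and understate those of low genes. Same-passage libraries deviated together (r from 0.235 to 0.504 over 6 pairs of lines), so passage numbers pair the samples. Exon lengths and positions come from GENCODE M21 and promoters from RefSeq. The members and lists were chosen with earlier results of these data known. Beside the members, 24 list genes and the 5 genes with the most similar profile over each set of libraries were named by rule. Other list genes (such as H2-Q10, H2-T10, Thop1, Gbp2 and the class I-like genes) were picked for naming once values were known. The GAANNGAAA and NF-kappaB motifs were added after the sequences were seen. Heavy chains that the table does not list, such as H2-Q7, and the promoters of Tap2 and Nlrc5 were not analysed here. Fits were tested on simulated data. The result for 1 list gene is not reported here.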

Additional observations from a re-analysis of the deposited data

How the results depend on the processing

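Over the 9 members, 38 results were rerun under 733 combinations of setting and result. Of these 692 kept direction and side of the rule, 14 lost the call, 14 gained it and 13 changed sign, none of them a called value. All gains except those of Tapbp with housekeeping scaling came from dropping the fold threshold. The 692 include runs that could not change, such as passage fits without a MEF library, which use no MEF. Scaling moved counts in comparisons with MEF: with quantile normalization 1 member was lower in MEF than in pre-iPS cells, and with housekeeping scaling 1 was lower there and 0 were lower than in the iPS lines. By adjusted p alone 4 members were higher in pre-iPS cells, and 1 was higher and 5 lower at passage 25. With the passage as a replicate block, 7 members were higher and 1 lower in pre-iPS cells by adjusted p alone, and H2-K1 and H2-D1 were lower in clone 2 than in the control (adjusted p = 0.0389 and 0.0405). No member met the full rule in these fits, as without the block. With no replicate block for the line, 0 members were called lower at passage 25, and 0 higher and 0 lower by adjusted p alone. Leaving out each library gave 1 to 2 members lower in MEF than in pre-iPS cells, 2 to 5 higher in pre-iPS cells by adjusted p alone, 0 to 1 called lower at passage 25, and by adjusted p alone 0 to 1 higher and 0 to 6 lower there. Values near 0 changed sign. H2-D1 in MEF against iPS lines was -0.18 with quantile normalization and -0.06 to 0.06 without single libraries. Tap1 in MEF against pre-iPS was -0.13 with quantile normalization and -0.11 to 0.13 without single libraries, and Psmb8 there was 0.38 with housekeeping scaling and -0.25 to 0.18. B2m at passage 25 was -0.04 to 0.14. Psmb5 and Irf1 in MEF against iPS lines were 0.07 and 0.08 with housekeeping scaling. The cause of these changes was not tested beyond the loss of samples. Nlrc5, at 46 to 176 reads in the reprogrammed libraries, is the member most limited by depth.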

Other observations

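Of 9 genes of class II presentation, which serves CD4 T cells, 6 were lower and 1 higher in MEF than in the iPS lines in limma, beside 26.6% of all genes lower and 21.6% higher. The median log2 difference was -2.58. The class II chains H2-Ab1 and H2-Aa and the invariant chain Cd74 differed by -3.78 (SE 0.25), -2.02 (SE 0.34) and -2.58 (SE 0.37), and Ctss, a lysosomal protease abundant in macrophages, was higher by 6.14 (SE 0.32). In pre-iPS cells 2 of the 9 were higher (Ctss and H2-DMb1) and 2 lower, H2-Aa among them (-2.13, SE 0.34).

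Ligands of NKG2D, the activating receptor of natural killer cells, were mixed. Of 6 tested, 3 were lower in MEF (H60c, Raet1a and Raet1e) and 1 higher (Raet1d). H60c differed most, by -7.26 on the log2 scale (SE 0.14), and H60b was higher in pre-iPS cells by 1.07 (SE 0.25, adjusted p = 0.0104). Of the 4 Polycomb core genes, which repress chromatin, Ezh2 (-1.57, SE 0.06) and Suz12 (-1.35, SE 0.09) were lower in MEF. These genes were picked for naming after their values were seen.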
